A study of Homo sapiens with 16 samples.

Results

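The genes described here are TPX2, its kinase partner AURKA, and 8 further genes of the route by which a mitotic spindle is built: BORA, PLK1, KIF11, KPNA2, RAN, RCC1, HMMR and NEDD1. They were selected by symbol, for what their products are known to do, with earlier results of these data known, and make up 10 of the 58787 gene rows of the count table. The samples are IMR32 cells, an established human neuroblastoma line that carries amplified MYCN. 3 groups received an siRNA against TPX2, named si45, si46 or si47, and the control group received a non-targeting siRNA, siNTC. Each group had 4 libraries, 16 in all, and the file headers give 48 h for every library. Without a paper, the purpose is known only from the series title, which places TPX2 downstream of translation controlled by eIF4A. All groups come from 1 cell line, and the replicates are called biological without further detail, so p-values measure only the spread between these samples.

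In a dividing cell the chromosomes carry RCC1, the exchange factor that loads the small GTPase RAN with GTP. RAN-GTP frees spindle factors, TPX2 among them, from importins such as the importin alpha encoded by KPNA2. Free TPX2 binds microtubules, promotes their nucleation around chromosomes, and activates and localizes Aurora A, the kinase encoded by AURKA. BORA is the cofactor with which Aurora A activates PLK1, the kinase that drives mitotic entry. KIF11 is the motor that slides the spindle poles apart, HMMR is a microtubule-bound adaptor that helps to place TPX2 at the poles, and NEDD1 brings the gamma-tubulin ring complex to spindle microtubules. Many genes of the route are transcribed mainly in G2 and mitosis, which holds for TPX2, AURKA and PLK1 in particular.

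Cell cycle genes of that late phase often carry a CHR element (cell cycle genes homology region) close to the start of transcription, where complexes built on the MuvB core bind. Promoter windows were therefore examined for the CHR letters TTTGAA or TTCGAA on either strand. RefSeq windows on GRCh38.p14, from 250 bases before to 50 after a start, were matched for 8 of the 10 genes. TPX2 and AURKA had no window in the set used, so their promoters were not examined. 6 of these 8 held a match, against 16.4% of all 35116 windows of that length. RCC1 and NEDD1, with 2 windows each, held none. The lines below give 1 match per gene, chosen as the one nearest the start, as 30 bases of the gene's strand with the match in capitals. TTCAAA is the match read from the other strand.
BORA: gaggagttgccaTTCGAAtttcctacgcgg
PLK1: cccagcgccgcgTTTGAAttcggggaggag
KIF11: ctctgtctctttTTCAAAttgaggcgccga
KPNA2: cgaggtggacccTTTGAAcgcagtcgccct
RAN: gcgtctccggcgTTTGAAttgcgcttccgc
HMMR: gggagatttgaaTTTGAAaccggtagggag

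The BORA sequence is chr13:72727787-72727816, with the match 124 bases before the start. The PLK1 sequence is chr16:23678848-23678877, 29 bases before it, and the KIF11 sequence is chr10:92593090-92593119, 28 bases before it. The KPNA2 sequence is chr17:68035755-68035784, 32 bases after the start. The RAN sequence is chr12:130872051-130872080, 3 bases before the start, and the HMMR sequence is chr5:163460598-163460627, 22 bases before it. All lie on the plus strand. HMMR held a further match that ends where the printed one begins, and BORA and KPNA2 held 1 more each. The letters CCAAT or their complement, another element common in such promoters, were present in 34.6% of all windows and in those of BORA, PLK1, KIF11, KPNA2 and HMMR, but not in those of RAN, RCC1 or NEDD1. A match describes the letters of the window and is not a measured binding site.

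The libraries were read from the 3' end of polyadenylated transcripts, so that counts need no correction for length, although PCR copies of a molecule may have been counted more than 1 time. Total counts ran from 5318159 to 7864343 per library, with a median of 5966582. Values below are CPM, counts scaled to the size of the library with TMM factors, and a log2 fold change, written as a log2 difference, comes from edgeR's quasi-likelihood test fitted to 14193 genes. A gene is called where its Benjamini-Hochberg adjusted p is under 0.05. Sympathetic neuroblast markers ranged widely in level: over the 16 libraries GATA3 averaged 1199 CPM (1022 to 1379), HAND2 804 CPM (674 to 886) and ISL1 212 CPM (182 to 269), while STMN2 averaged 62.0 CPM, GAP43 28.7 CPM and TH 3.18 CPM (1.49 to 5.01). DBH fell and HAND2 rose in the contrast of the mean. Of 4 glial and 3 leukocyte markers none averaged over 1 CPM, and OLIG2 and CD3E were at 0 in every library, so the Brain tissue label is not matched by glial transcripts. 3 of 7 mesenchymal or Schwann-like markers averaged over 1 CPM, with summed levels of 34.9 to 57.1 CPM in siNTC and 26.6 to 72.1 CPM after knockdown, and SOX10 was at 0.

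In the siNTC libraries the level of RAN was highest, at 742 ± 33.3 CPM (SD, n = 4), followed by TPX2 at 327 ± 27.1 and KPNA2 at 272 ± 43.9 CPM. AURKA at 170.5 ± 14.3, PLK1 at 156 ± 12.9, KIF11 at 102 ± 6.43 and HMMR at 84.1 ± 11.95 CPM came next. NEDD1 at 57.2 ± 6.09, RCC1 at 34.5 ± 4.26 and BORA at 2.41 ± 0.983 CPM were the lowest. The libraries of TPX2 and KPNA2 overlapped in level, as did those of AURKA and PLK1 and those of KIF11 and HMMR, while every other pair of neighbours in this order was separate. In control cells TPX2 was thus more abundant than its kinase AURKA, with 1.88 to 2.01 TPX2 counts per AURKA count in the 4 libraries.

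Across the knockdowns, TPX2 fell under every siRNA, and smaller decreases were called for AURKA, KIF11 and NEDD1. None of the 10 genes was called higher. With si45 1 gene of 10 was called, TPX2, against 1.34% of all genes tested (0.324% lower). With si46 2 were called, TPX2 and KIF11, against 3.4% of all genes (1.25% lower). With si47 4 were called, TPX2, AURKA, KIF11 and NEDD1, against 9.74% of all genes (4.83% lower). In the mean of the 3 siRNAs 3 were called, TPX2, AURKA and KIF11, against 7.14% of all genes (3.53% lower). The contrasts share the 4 siNTC libraries and are not independent. Without TPX2, the median log2 difference of the other 9 genes was -0.14 with si45, -0.23 with si46, -0.21 with si47 and -0.16 in the mean, where the median of all genes tested was at most 0.0043 in size. The direction is lower for 6, 6, 7 and 6 of the 9. The siRNAs were profiled in bulk, where fewer cells in G2 or mitosis and less transcript per cell cannot be told apart.

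**Figure D1:**
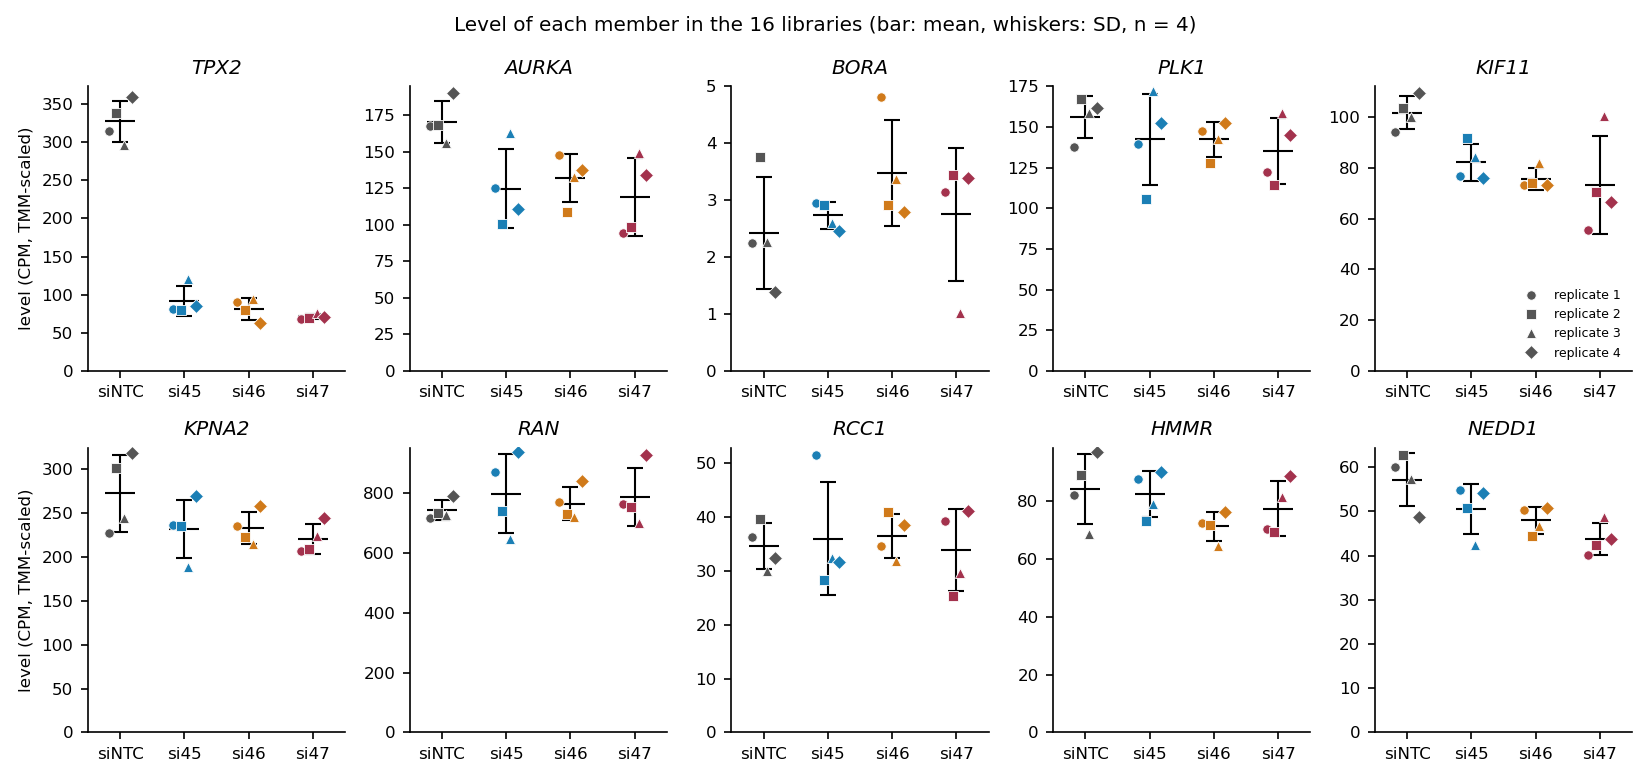
Level of each gene (vertical axes, CPM after TMM scaling, each from 0) in the 4 libraries of siNTC, si45, si46 and si47. Points are libraries with a marker shape per replicate number, bars are means and whiskers the SD (n = 4). All 12 knockdown libraries lie below all 4 siNTC libraries for TPX2, while for AURKA and KIF11 11 of 12 do and RAN and RCC1 overlap the controls.

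TPX2 (ENSG00000088325, chromosome 20, 31739271 to 31801805, plus strand of GRCh38) is the target of the siRNAs. Its level in siNTC replicates 1 to 4 was 315, 339, 297 and 359 CPM. With si45 it was 80.9, 79.4, 121 and 85.1 CPM, with si46 90.9, 79.8, 93.8 and 62.2 CPM, and with si47 68.7, 69.7, 76.3 and 71.3 CPM. The highest knockdown library, si45 replicate 3, was well below the lowest control, so the groups did not overlap. Among all genes tested, 1.03% had all 12 knockdown libraries below all 4 controls. That share was not taken for a single siRNA or for fewer than 12 libraries. Such counts for the other genes are therefore descriptions, without a measure of how unusual they are. The log2 difference was -1.84 with si45, -2.0 with si46 and -2.20 with si47 (edgeR adjusted p = 4.37e-11, 6.01e-12 and 3.51e-13). In the mean of the 3 it was -2.01 (95% interval -2.19 to -1.83, edgeR adjusted p = 1.13e-15), a 4.03-fold lower level that leaves 24.8% of the control. TPX2 had the lowest p of all genes with si45, with si46 and in the mean, and in the mean also the largest decrease.

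The TPX2 that remained averaged 28.0% of the siNTC mean with si45, 24.9% with si46 and 21.8% with si47, and no pair of siRNAs differed past the threshold. The si47 libraries varied little, at 71.5 ± 3.37 CPM (SD, n = 4), against 91.6 ± 19.8 CPM for si45 and 81.7 ± 14.3 CPM for si46. The difference of si47 from si45 was -0.36 (95% interval -0.61 to -0.11), with an unadjusted p of 0.00703 and an edgeR adjusted p of 0.246, so it is not called. The difference of si46 from si45 was -0.16 (95% interval -0.41 to 0.09) and that of si47 from si46 -0.20 (95% interval -0.45 to 0.06), with edgeR adjusted p = 0.99998 and 0.785. None of the other 9 genes was called between siRNAs either, where 0.0282% of all genes passed for si46 against si45, 0.169% for si47 against si45 and 0.0493% for si47 against si46. TPX2 in si47 against si45 was also the only one of these 30 differences with an unadjusted p under 0.05.

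AURKA (ENSG00000087586, chromosome 20, 56369389 to 56392337, minus strand) encodes the kinase that TPX2 activates. Its level in siNTC was 168, 168, 156 and 190.1 CPM. With si45 it was 125, 100.3, 163 and 111 CPM, with si46 148, 109, 133 and 138 CPM, and with si47 94.5, 98.3, 149 and 134 CPM. Every si46 and si47 library was below every control, and si45 replicate 3, the library with the most TPX2 among the knockdowns, was the 1 that overlapped. The log2 difference was -0.45 with si45, -0.37 with si46 and -0.52 with si47, and the edgeR adjusted p of 0.199, 0.234 and 0.0343 made only the last a call. That call was lost without siNTC replicate 1, 2 or 4 or si47 replicate 1 or 2 (edgeR adjusted p from 0.0690 to 0.111). In the mean AURKA fell by 0.45 on the log2 scale (95% interval -0.70 to -0.19, edgeR adjusted p = 0.0278), a 1.36-fold lower level. Leaving out siNTC replicate 1, 2 or 4 ended the call in the mean, at log2 differences of -0.46, -0.45 and -0.39 (edgeR adjusted p = 0.07497, 0.0812 and 0.119). The si46 difference was called without the low-count filter (edgeR adjusted p = 0.0139) and with only the groups compared (0.0177). The si45 difference reached -0.60 (edgeR adjusted p = 0.0112) without si45 replicate 3.

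Because TPX2 fell further than AURKA, the number of TPX2 counts per AURKA count dropped from a mean of 1.92 ± 0.0601 (SD, n = 4) in siNTC to 0.737 ± 0.0634 with si45, 0.626 ± 0.127 with si46 and 0.619 ± 0.114 with si47. No knockdown library exceeded 0.791. The order of the pair was thereby reversed: in every control library TPX2 was the more abundant transcript, and in every knockdown library AURKA was. These ratios are given as a description, since TPX2 was the gene targeted.

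BORA (ENSG00000136122, chromosome 13, 72727749 to 72756198, plus strand) was close to the floor of what these libraries can measure, with 6 to 38 counts per library. Its level was 2.24, 3.75, 2.27 and 1.39 CPM in siNTC and 1.01 to 4.81 CPM in the knockdown libraries, which overlapped the controls in all 3 groups. Counting alone gives a coefficient of variation of 26.3% at the siNTC mean. The log2 difference in the mean was 0.29 with a 95% interval of -0.41 to 0.996 (edgeR adjusted p = 0.701), so neither a rise nor a fall was detectable at this depth. BORA overlaps DIS3 on the opposite strand, which had 233 to 434 counts, and the use of strand in counting is not given in the sources used here.

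PLK1 (ENSG00000166851, chromosome 16, 23677656 to 23690367, plus strand), the kinase that Aurora A and BORA switch on, was not called under any siRNA. Its level was 138, 167, 158 and 162 CPM in siNTC. With si45 it was 139, 106, 172 and 152 CPM, with si46 148, 127, 143 and 152 CPM, and with si47 122, 114, 158 and 145 CPM. 4 of 12 knockdown libraries were below all controls, and si45 replicate 3 was above them all. The log2 difference in the mean was -0.16 (95% interval -0.35 to 0.03, edgeR adjusted p = 0.349).

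KIF11 (ENSG00000138160, chromosome 10, 92593286 to 92655395, plus strand), the kinesin that pushes spindle poles apart, had 94.1, 104, 100.0 and 109 CPM in siNTC. With si45 its level was 76.9, 91.6, 84.1 and 76.0 CPM, with si46 73.3, 73.8, 81.8 and 73.4 CPM, and with si47 55.6, 70.4, 100.5 and 66.5 CPM. All si45 and si46 libraries and 3 of 4 si47 libraries were below every control, and si47 replicate 3 lay among the controls. The log2 difference was -0.31 with si45, -0.43 with si46 and -0.47 with si47 (edgeR adjusted p = 0.270, 0.0383 and 0.00870). In the mean KIF11 fell by 0.40 on the log2 scale (95% interval -0.60 to -0.21, edgeR adjusted p = 0.00657), a 1.32-fold lower level. The call in the mean held without each of the 16 libraries in turn, with an adjusted p of at most 0.0461. The call with si46 was lost without any 1 of the siNTC libraries or without si46 replicate 1, 2 or 4 (edgeR adjusted p from 0.05508 to 0.128), and that with si47 was lost without si47 replicate 1 (0.0672).

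NEDD1 (ENSG00000139350, chromosome 12, 96907223 to 96953777, plus strand), the adaptor of the gamma-tubulin ring, had 59.96, 62.9, 57.3 and 48.7 CPM in siNTC. With si45 its level was 54.8, 50.8, 42.5 and 54.1 CPM, with si46 50.3, 44.4, 46.6 and 50.7 CPM, and with si47 40.2, 42.5, 48.7 and 43.9 CPM. The si47 libraries were all below the controls, although the highest of them and the lowest control were 48.7 CPM after rounding. The log2 difference was -0.18 with si45, -0.25 with si46 and -0.39 with si47 (edgeR adjusted p = 0.601, 0.281 and 0.0280). In the mean it was -0.27 (95% interval -0.46 to -0.08, edgeR adjusted p = 0.0676), just outside the threshold. Of the alternative fits to all 16 libraries, only DESeq2 (adjusted p = 0.0454) and the replicate block (edgeR adjusted p = 0.0318) called NEDD1 in the mean. Leaving out each library in turn, 2 of the 16 fits called it (edgeR adjusted p from 0.0414 to 0.248). The si47 call was lost without siNTC replicate 1, 2 or 3 or without si47 replicate 1, 2 or 4, with an adjusted p from 0.05463 to 0.0998.

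HMMR (ENSG00000072571, chromosome 5, 163460203 to 163491945, plus strand) had 81.9, 89.0, 68.7 and 96.8 CPM in siNTC and 64.5 to 90.0 CPM over the knockdown libraries. Only si46 replicate 3 was below all controls. The log2 difference was -0.03 with si45, -0.24 with si46, -0.12 with si47 and -0.13 in the mean (95% interval -0.31 to 0.05, edgeR adjusted p = 0.431 for the mean), and no call was made.

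**Figure D2:**
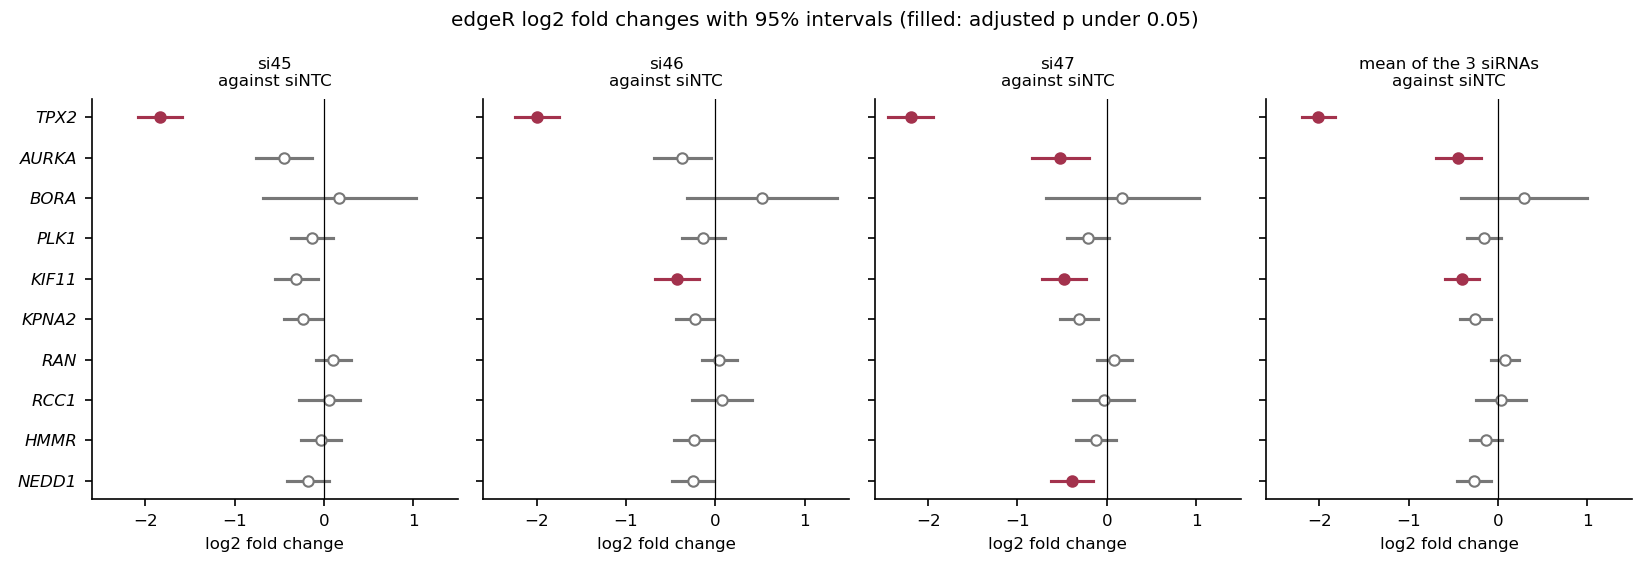
edgeR log2 difference of each gene (horizontal axes) for si45, si46, si47 and the mean of the 3 siRNAs against siNTC. Points are estimates, lines 95% intervals, and filled points have an adjusted p under 0.05. TPX2 stands near -2 in all 4 panels, the other filled points lie between -0.52 and -0.39, and BORA has the widest interval.

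The genes of the Ran and importin side showed no called change. RAN (ENSG00000132341, chromosome 12, 130871879 to 130877678, plus strand), the GTPase, had 717, 733, 727 and 791 CPM in siNTC. With si45 its level was 869, 741, 645 and 937 CPM, with si46 771, 729, 719 and 841 CPM, and with si47 763, 753, 701 and 926 CPM. The knockdown libraries lay on both sides of the controls, 2 below them all and 4 above. The log2 difference in the mean was 0.08 with a 95% interval of -0.08 to 0.24 (edgeR adjusted p = 0.642), so the interval reaches from 94.3% to 118% of the control level. RAN was the best counted of the 10 genes, at 3719 to 6090 counts per library, and its 9 annotated pseudogenes together held 0 to 10.

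RCC1 (ENSG00000180198, chromosome 1, 28505943 to 28539300, plus strand), the exchange factor of RAN, had 36.2, 39.6, 29.9 and 32.4 CPM in siNTC and 25.2 to 51.5 CPM after knockdown, with 3 of 12 libraries below and 3 above all controls. The log2 difference in the mean was 0.03 (95% interval -0.25 to 0.31, edgeR adjusted p = 0.927). The annotated RCC1 gene overlaps SNHG3 on the same strand, which had 629 to 1129 counts against 139 to 332 for RCC1, so reads of the shared stretch could be split between them and the RCC1 value is uncertain.

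KPNA2 (ENSG00000182481, chromosome 17, 68035519 to 68046842, plus strand), the importin alpha that holds TPX2, had 227, 301, 244 and 318 CPM in siNTC. With si45 its level was 236, 235, 188 and 269 CPM, with si46 235, 223, 215 and 258 CPM, and with si47 206, 209, 223 and 244 CPM. The controls had an SD of 43.9 CPM, and 6 of 12 knockdown libraries were below them all. The log2 difference was -0.30 with si47 (edgeR adjusted p = 0.0600) and -0.25 in the mean (95% interval -0.43 to -0.08, edgeR adjusted p = 0.0593), both just outside the threshold. Without siNTC replicate 1, the lowest control, the mean difference was -0.33 and passed (edgeR adjusted p = 0.0217). Leaving out each library in turn gave -0.33 to -0.17 and an adjusted p of 0.0217 to 0.325, and 4 of the 16 fits called it.

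Each siRNA was also compared with siNTC by a two-sided exact permutation test of the mean log2(CPM + 1), 4 libraries against 4, whose smallest possible p is 0.0286. 8 of the 30 comparisons reached it: TPX2 with all 3 siRNAs, AURKA with si46 and si47, KIF11 with si45 and si46, and NEDD1 with si47. TPX2 was the gene targeted, and the test was run on the named genes only. The share of all genes that would reach this p is therefore not known. After Benjamini-Hochberg adjustment over the 30, the smallest exact permutation p was 0.107, and none passed 0.05. With this floor, even fully separate groups can pass only if most of the 30 comparisons reach it. No conclusion is therefore drawn from the adjusted values.

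Within the 12 knockdown libraries, the TPX2 that remained ran from 62.2 to 121 CPM, and none of the other 9 genes followed it past the threshold (adjusted permutation p of at least 0.347). For AURKA Pearson's r was 0.487 and Spearman's rho 0.399 (n = 12 libraries, permutation p = 0.107 and 0.202, adjusted 0.347 and 0.823). Leaving out si45 replicate 3 and si46 replicate 4, the libraries farthest from the median TPX2, gave r = 0.490. As deviations from the mean of each siRNA, r was 0.527 for AURKA, -0.692 for KPNA2 and -0.610 for RAN (permutation p = 0.0794, 0.0615 and 0.0510, adjusted 0.238 for each). Over the 12 libraries r was -0.441 for KPNA2 and -0.476 for RAN, and without the 2 farthest libraries it was 0.342 and -0.0654, so these relations rest on those libraries.

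Variation between libraries of 1 group was compared for all 45 pairs of the 10 genes over the 16 libraries, a comparison added after the values were seen. Only KPNA2 and RAN passed by both measures, with Pearson's r = 0.746 (permutation p = 0.000400, adjusted 0.0180) and Spearman's rho = 0.665 (permutation p = 0.000960, adjusted 0.0432). Without si45 replicate 3 and siNTC replicate 1, the libraries farthest in KPNA2, r was 0.682. Replicate 4 of every group stood above its group mean in both genes, by 0.09 to 0.25 on the log2 scale for RAN and 0.15 to 0.24 for KPNA2, and si45 replicate 3 stood lowest in both, at -0.29. Same-numbered libraries deviated together over all genes, with a positive r for every pair of groups, so the 16 libraries are not fully independent points. AURKA and PLK1 had the highest r of all pairs, 0.816 (rho = 0.735), but an adjusted permutation p of 0.130. Their r was 0.868 over the 12 knockdown libraries and 0.186 over the 4 controls, which were not tested alone.

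**Figure D3:**
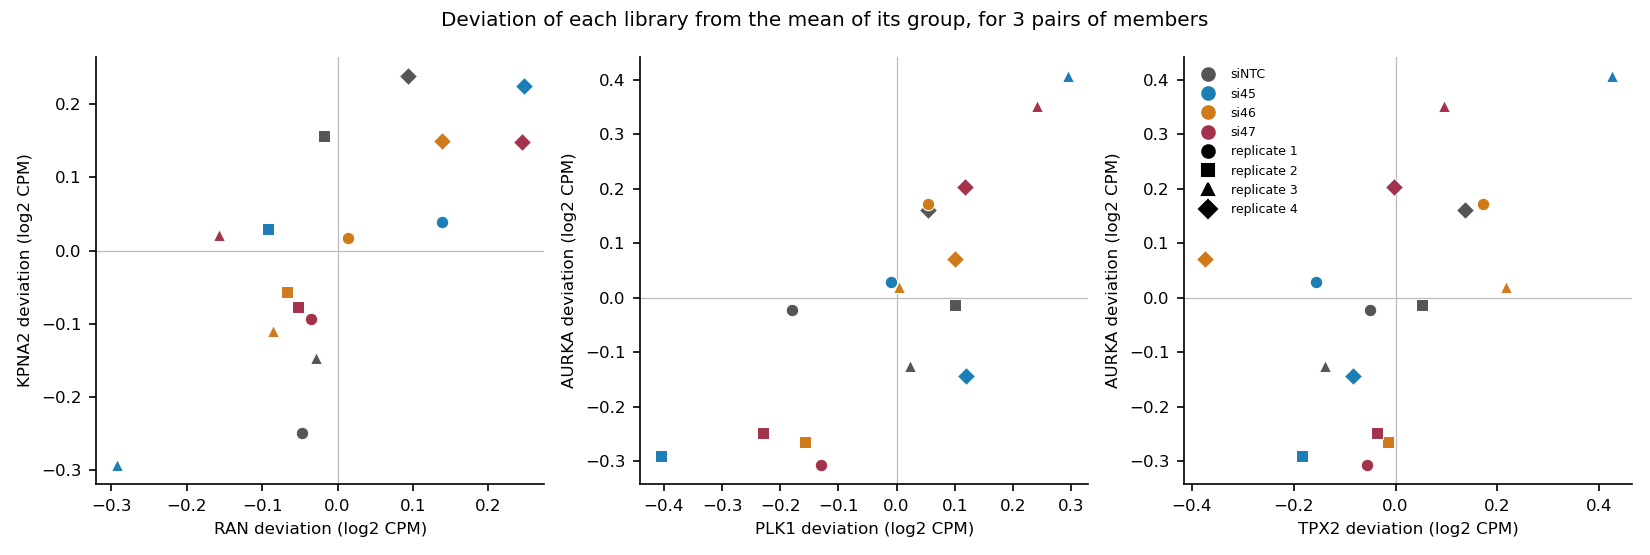
Deviation of each of the 16 libraries from the mean of its group, in log2 CPM on both axes, for KPNA2 against RAN, AURKA against PLK1 and AURKA against TPX2. Colours are groups and shapes are replicate numbers. KPNA2 and RAN rise together (r = 0.746), and si45 replicate 3 is lowest in that panel and highest in the other two.

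Genes with the most similar pattern were sought among 11749 tested genes averaging at least 20 counts, by the root mean square difference of the log2 level relative to the siNTC mean over the 16 libraries. The closest to TPX2 were CCKAR, a receptor of the hormone cholecystokinin (0.683), and DAPK2, a calmodulin-regulated death-associated kinase (0.912). They were far less abundant than TPX2, with means of 11.4 and 8.73 CPM in siNTC and 4.10 and 4.18 CPM in the knockdown libraries. AURKA stood 1.37 away from TPX2. The closest to AURKA were RAI14, an actin-bound ankyrin repeat protein (0.135), SYNM, an intermediate filament protein (0.168), and CDK1, the kinase of mitotic entry (0.168). RAI14 went from 398 ± 13.5 CPM (SD, n = 4) to 286 ± 38.9 CPM (SD, n = 12), and CDK1 from 143 ± 10.9 to 102 ± 10.5 CPM. Among the 10 genes themselves KIF11 (0.222) and PLK1 (0.285) were closest to AURKA.

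The wider pathway is given for the mean of the 3 siRNAs, from lists of known components. No gene of the 7 lists was called higher in that contrast, in which 7.14% of all genes were called, 3.53% of them all as lower. Of 14 regulators and partners of Aurora A, 2 fell: CKAP5, a microtubule polymerase that works with TACC3 (log2 difference -0.30), and CEP192, the centrosome scaffold that recruits Aurora A (-0.38). The median of that list was -0.11. CKAP5 was called under every setting, whereas the CEP192 call was lost without any 1 of the siNTC libraries, without si45 replicate 1, 2 or 4, si46 replicate 2 or 4 or si47 replicate 1 or 2, without the low-count filter and without the 4 libraries numbered 3. Of 4 subunits of the Aurora B complex 3 fell: AURKB, the kinase itself (-0.51), INCENP, its scaffold (-0.36), and CDCA8, which encodes borealin (-0.26), while BIRC5 at -0.18 was not called. AURKB was called under every setting, INCENP was lost without siNTC replicate 2 or 4, and CDCA8 without siNTC replicate 1 or 3, without the low-count filter and without the libraries numbered 3. AURKB went from 374 ± 36.1 CPM in siNTC to 282, 277 and 233 CPM with si45, si46 and si47, and all 12 knockdown libraries were below all controls. Its edgeR adjusted p was 2.47e-04, smaller than that of AURKA, although the difference between the kinases was not tested.

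Of 13 tested genes of the Ran cycle and importin transport 1 fell, RANGAP1, the GTPase-activating protein of RAN (-0.29), and the list median was -0.03. That call was lost without siNTC replicate 1, 2 or 4 or si45 replicate 2. KPNB1, the importin beta that pairs with KPNA2, was at -0.11 (edgeR adjusted p = 0.291) and RANBP1 at -0.14 (0.282). The direction was lower for 7 of the 13, and the list also held KPNA1 at 0.28 (edgeR adjusted p = 0.0736) and TNPO1 at -0.21 (0.0776). With the replicate block, or without si45 replicate 4, 1 gene of the list was called higher. Of 15 tested spindle factors regulated by importins 3 fell, KIF14 (-0.43) and ANLN (-0.44), which act in cytokinesis, and DLGAP5, a microtubule-bound partner of Aurora A (-0.48). The median of these 15 was -0.16. KIF14 was called under every setting, but ANLN was lost without siNTC replicate 2 and DLGAP5 without siNTC replicate 2 or 3. Of 21 genes of augmin, the gamma-tubulin ring and its anchors, to which NEDD1 connects, 5 fell with a median of -0.15: the augmin subunits HAUS6 (-0.37) and HAUS8 (-0.44), gamma-tubulin TUBG1 (-0.30), and the pericentriolar scaffolds PCNT (-0.31) and CDK5RAP2 (-0.23). Each of these 5 calls was lost without at least 1 siNTC library, CDK5RAP2 also without si45 replicate 1, si47 replicate 1 or the low-count filter.

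Of 11 other spindle motors and partners of KIF11 5 fell with a median of -0.20, among them KIF15, a kinesin that can stand in for KIF11 (-0.43), CENPE, the kinetochore kinesin (-0.33), KIF23 of the central spindle (-0.34) and KIF22, which moves chromosome arms (-0.34). KIF15 and KIF23 were called under every setting, while CENPE was lost without siNTC replicate 2 and KIF22 without siNTC replicate 4. KIF15 went from 183 ± 10.3 CPM in siNTC to 148, 133 and 126 CPM with si45, si46 and si47. Of 50 G2/M genes outside the 10, a list that shares members with the others, 26 fell and the median was -0.27. HJURP, the chaperone of the centromeric histone, fell by 0.63, CDCA2 by 0.59, MKI67 by 0.50 and CDK1 by 0.50 on the log2 scale, with edgeR adjusted p from 4.17e-06 to 3.27e-05. The median of TPX2's 9 partners, -0.16, was thus closer to 0 than that of this list. Without siNTC replicate 2 the count of this list was 16 and that of the motors 3. The count of augmin and the gamma-tubulin ring was then 2 and that of the importin-regulated factors 1. The medians in that fit were -0.25, -0.22, -0.18 and -0.12, in the same order. Over all genes, too, fewer were called without that library, so the drop in calls was not confined to these lists.

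**Figure D4:**
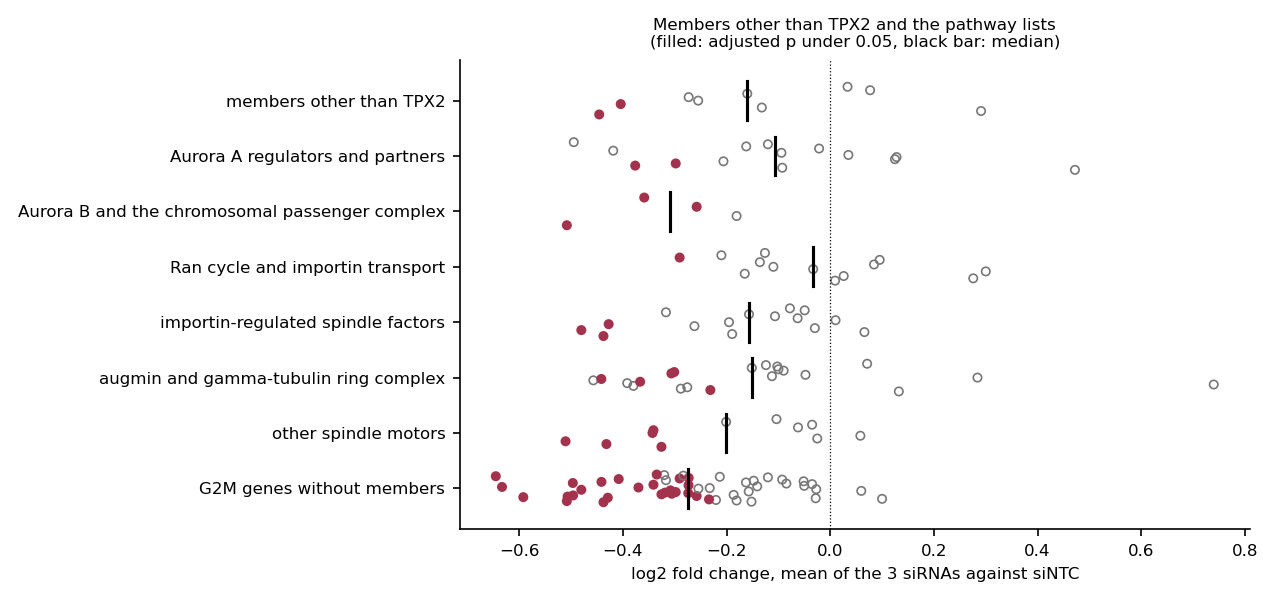
edgeR log2 difference in the mean of the 3 siRNAs against siNTC (horizontal axis) for the 9 genes other than TPX2 and the tested genes of 7 lists. Each point is a gene, filled where the adjusted p is under 0.05, and black bars are medians. Filled points all lie below 0, and the medians run from -0.31 for the Aurora B complex to -0.03 for the Ran and importin list.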

How the data were processed

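RNA was measured in 16 libraries (4 groups of 4) of IMR32 cells. Per the labels' protocols, RNA was extracted with a column kit and a DNase step, and 3' end libraries were made with 15 PCR cycles and sequenced from 1 end. The authors deposited whole-number raw read counts per Ensembl gene, not normalized. FastQC 0.11.7, STAR 2.7.2b, edgeR 3.36.0, limma 3.50.3 and GRCh38 are named, with no role, in the submitters' processing notes. The counter, the annotation, the use of strand and the handling of PCR duplicates are not given in the sources used here. Duplicates, if kept, add to the spread between replicates, and the counting error given for BORA covers counting only.

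Each column of the table was assigned to its sample through the siRNA name and replicate number in its header. Symbols matched 58434 of 58787 rows, and positions came from GENCODE v29. Mitochondrially encoded genes were not analysed here. Replicate pairs gave a chi-square of 4.36 to 9.80 per degree of freedom over 24 pairs, so none agreed within sampling noise. Counts were filtered by filterByExpr (minimum count 10, minimum total 15), scaled by TMM and fitted with edgeR 4.0.16 in R 4.3.3 as a robust quasi-likelihood model of 4 group means over 16 libraries. p-values were adjusted by Benjamini-Hochberg over 14193 genes per contrast and called below 0.05. The standard error was the log2 difference divided by the square root of F. The pipeline was tested on simulated data. Permutation tests of correlations used 100000 resamples, within groups where deviations were compared, on log2 CPM without a prior count. Deviations of same-numbered libraries over all genes used log2 CPM with a prior count of 2. Similarity used a pseudocount of 0.1 CPM. Promoter windows were RefSeq's on GRCh38.p14.

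The 10 genes, the lists and the tests were chosen with earlier results of these data known. All 10 were named. From each list, genes past the threshold in the contrast of the mean were named, at most 4 per direction by lowest p. BIRC5, KPNB1, RANBP1, KPNA1 and TNPO1 were added outside this rule although not called, and CDK5RAP2 as a call beyond the 4 of its list. For TPX2 and AURKA the rule took the 3 most similar genes. Some items that the rules also cover are not reported here. Same-numbered libraries of si45 and si47 deviated together (r from 0.120 to 0.242 in all 4 pairs), a pairing found in the data that no label states. It was not particular to these groups: r ran from 0.0716 to 0.247 for si45 and si46, and from 0.0854 to 0.209 for si46 and si47. With the replicate number as a block, 0 of the 10 genes were called between si45 and si47. Over all 14193 genes, 398 were called in that fit, against 24 without the block. The alternatives tried were DESeq2 1.42.0, voom from limma 3.58.1, upper-quartile and RLE factors, other count filters, only the groups compared, the replicate block, leaving out each library and, added after seeing the data, leaving out the 4 libraries numbered 3.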

Additional observations from a re-analysis of the deposited data

Results flagged for a closer look

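In 3 of 44 groups of 4 libraries looked at, 1 library stood far from the others by Dixon's ratio of gap to range at its 95% level. Chance gives about 1 in 20, or 2.2 of 44. TPX2 in si45 replicate 3 was 121 CPM against 79.4 to 85.1 CPM in the other si45 libraries (ratio 0.862). KIF11 in si46 replicate 3 was 81.8 CPM against 73.3 to 73.8 CPM (ratio 0.936). BORA in si47 replicate 3 was 1.01 CPM against 3.14 to 3.45 CPM (ratio 0.875), which rests on 6 counts. All 3 are numbered replicate 3. What these libraries share was not tested.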

How the results depend on the processing

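TPX2 was called under every setting against siNTC, with log2 differences in the mean from -2.15 to -1.97. With RLE or upper-quartile factors the counts called among the 10 genes and in the lists stayed as reported. Over all genes the calls in the mean went from 1014 to 1004 with RLE and to 989 with upper-quartile factors. Without the low-count filter, with the replicate block and with the 4 libraries numbered 3 left out, 2 genes were called for si45, TPX2 and AURKA. The replicate block gave 5 in the mean, adding KPNA2 (edgeR adjusted p = 0.00351) and NEDD1 (0.0318). Same-numbered libraries of siNTC and a knockdown group correlated at 0.0188 to 0.184, all positive but not all over 0.1, and no label says what a number marks. Leaving out 1 library gave 1 to 2 called genes of the 10 for si45 and for si46, 1 to 5 for si47 and 2 to 4 in the mean. The number called over all genes also rose or fell with the library left out. These ranges are therefore not particular to the 10 genes. Without the 4 libraries numbered 3, AURKA was at -0.58 and KIF11 at -0.49 in the mean (edgeR adjusted p = 1.93e-04 and 3.09e-04). Over all genes, 190, 482, 1382 and 1014 calls for si45, si46, si47 and the mean became 577, 1073, 2198 and 1817 with the block and 379, 623, 1619 and 1336 without the libraries numbered 3. DESeq2 called 292 for si45, and 356 were called without the filter, where 28981 genes were tested instead of 14193.

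Directions turned for values close to 0 when 1 library was left out, with ranges of -0.0195 to 0.48 for BORA with si45 and -0.0116 to 0.48 with si47, -0.16 to 0.17 for RCC1 with si45, -0.14 to 0.0824 with si47 and -0.0361 to 0.11 in the mean, -0.12 to 0.0401 for HMMR with si45, -0.00713 to 0.0747 for RAN with si46 and -0.00691 to 0.13 with si47, and -0.24 to 0.00201 for TPX2 in si46 against si45. Correlations with the remaining TPX2 turned to -0.0173 (BORA), -0.207 (HMMR) and -0.507 (NEDD1) as deviations from the siRNA mean, and to 0.342 (KPNA2) and -0.130 (HMMR) without the 2 farthest libraries. The cause was not tested. Depth limits BORA most.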
